A study of Homo sapiens with 6 samples.

Results

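The amino acid transporter families described here are the human genes named SLC1A, SLC3A, SLC6A, SLC7A, SLC36A, SLC38A or SLC43A plus a number, chosen by symbol alone with 1 symbol set aside. They were 58 of the 58735 features in the count table. The cells, labelled as the neuroblastoma line BE(2)-C, grew in DMEM with calf serum and were infected with lentivirus and kept under puromycin. The NS group (n = 3 libraries) stably carries a non-silencing short hairpin and is tagged wildtype, and the shACSS2 group (n = 3 libraries) carries a hairpin against ACSS2, the acetyl-CoA synthetase of nucleus and cytosol. Titles write the second group as siACSS2, and 1 passage of the protocol calls the line shNgBR. The groups here follow the titles. The labels name no clones, no separate cultures and only 1 hairpin per group, so the p-values measure the spread between these libraries, which may be technical.

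Amino acids carry charges and cross membranes through carrier proteins. Many SLC1 and SLC38 carriers use the sodium gradient to concentrate small neutral or acidic amino acids. The light chains of the SLC7 family exchange 1 amino acid for another and reach the cell surface only when bound to a heavy chain of the SLC3 family, while the cationic carriers of SLC7 act alone. SLC6 proteins take up transmitters, creatine, taurine and some amino acids with sodium and chloride, and SLC36 carriers are driven by protons. In neuroblastoma and other tumours these families are known for feeding glutamine, leucine and serine to growing cells.

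Library totals ran from 16617885 to 20831599 counts, and 16210 genes had enough reads to be tested. ACSS2 had 366, 387 and 438 reads in NS, while shACSS2 libraries held 75, 84 and 110, without overlap (log2 fold change −1.94 with SE 0.145; edgeR's adjusted p = 1.95e-06; exact two-sided permutation p = 0.1, the smallest that 3 against 3 libraries allow). Of 17 adrenergic neuroblastoma markers, 4 reached a mean of 5 counts per 1e6 counts (CPM). These were HAND1 (24.2 to 39.6 CPM over the 6 libraries), GATA2 (41.5 to 60.4), GATA3 (19.0 to 23.1) and ISL1 (12.3 to 19.5). PHOX2A, TH and TFAP2B were among the 4 with 0 counts in every library. The adrenergic list summed to 109 to 112 CPM in NS and 119 to 147 CPM in shACSS2. Of 9 embryonic kidney markers 7 reached a mean of 5 CPM, with a summed 758 to 888 CPM in NS and 707 to 783 CPM in shACSS2. Most of that sum was IRS4, at 563 to 729 CPM over the 6 libraries. Of 9 markers of mesenchymal neuroblastoma 7 reached a mean of 5 CPM, at a summed 708 to 755 CPM in NS and 597 to 650 CPM in shACSS2. Of 5 fibroblast markers 2 reached it (31.0 to 37.1 CPM summed in NS, 35.7 to 45.6 in shACSS2, COL1A2 at 0), and none of 4 immune markers (2.52 to 3.41 and 2.26 to 2.83) or 3 endothelial markers (0.351 to 0.768 and 0.441 to 0.890) did. The part of these marker levels in the results was not tested. In shACSS2 replicate 1 the deviation of genes from their group mean ran against GC content (Spearman coefficient −0.60 across genes), and in shACSS2 replicates 2 and 3 it ran with it (0.47 and 0.39).

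Most of the transporter genes were measurable, but a large minority had few reads or none. A total of 35 members passed the expression filter. Of the other 23, 8 had no read in any library, 12 had 1 to 9 reads over all 6 libraries, and SLC7A10, SLC6A20 and SLC43A3 had 18, 22 and 10 reads. No untested member exceeded 9 reads in a library. A count of 0 among the 108405728 reads of the 6 libraries together leaves room for up to 0.0277 CPM (3 counts, counting error only). The genes without a read were SLC1A6, SLC6A5, SLC6A7, SLC6A18, SLC7A13, SLC7A14, SLC36A3 and SLC38A11. SLC6A2, the noradrenaline transporter and a hallmark of sympathetic neuroblasts, had 1 read in NS replicate 3 and none in the other libraries. SLC6A3, the dopamine transporter, had 2 reads in NS replicate 1 and 1 in NS replicate 3. SLC3A1, the heavy chain of kidney and gut, had 8 reads in all, and its partner SLC7A9 had 1.

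Levels between genes were compared per length, as composition-normalised CPM per kilobase of annotated exon (mean ± SD over all 6 libraries). SLC1A5, the glutamine carrier ASCT2, was the highest at 85.9 ± 8.52. SLC7A5, the leucine exchanger LAT1, followed at 59.2 ± 6.63. Below them came SLC38A2 (a glutamine and alanine carrier induced by amino acid shortage) at 37.5 ± 4.80, SLC6A8 (the creatine transporter) at 34.3 ± 3.97, SLC7A1 (an arginine and lysine carrier) at 33.0 ± 2.24, the heavy chain SLC3A2 at 27.7 ± 2.82 and SLC38A1 (a glutamine carrier) at 26.7 ± 3.77. Among these 5, only the step from SLC7A1 to SLC3A2 was larger than the SD of both neighbours. A step down led to SLC6A15, a carrier of branched-chain amino acids and proline, at 13.9 ± 2.17 and to the leucine carrier SLC43A1 at 12.9 ± 1.33. The lowest tested gene per length was SLC1A2, the main glutamate transporter of astrocytes, at 0.0361 CPM per kilobase over 22835 bases of annotated exon. By reads it was not the lowest, with 90 in all beside 55 of SLC38A5. SLC1A5, SLC7A5, SLC38A1, SLC7A1, SLC38A2 and SLC6A8 together took 63.4% to 65.5% of the summed CPM of all members in each library.

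**Figure D1:**
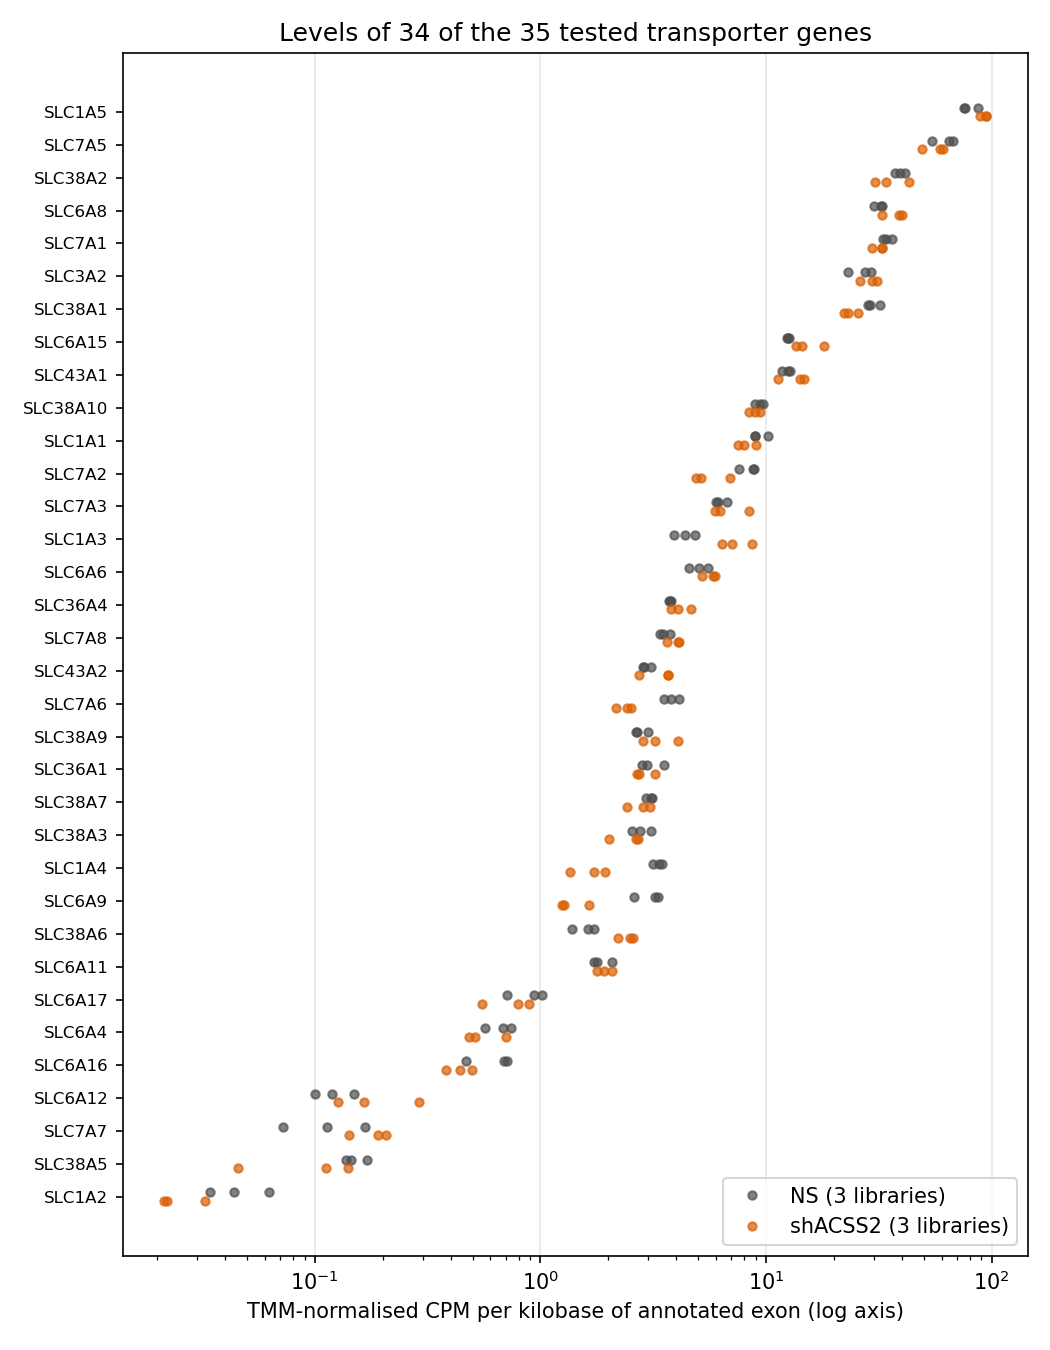
Level of 34 of the 35 tested members in each library, as TMM-normalised CPM per kilobase of annotated exon on a log axis, with genes ordered by their mean over 6 libraries. Grey points are NS and orange points shACSS2; SLC1A5 leads at 85.9 and SLC1A2 is lowest at 0.0361, and for most genes the colours mix.

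Between the groups, 7 of 35 tested members were past an adjusted p of 0.05 (Benjamini-Hochberg, all genes) in edgeR's quasi-likelihood test, which is 20% beside 17.1% of all tested genes. SLC1A3 and SLC38A6 rose (2 of 35, beside 7.48% of all genes), and SLC6A9, SLC1A4, SLC7A6, SLC7A2 and SLC38A1 fell (5 of 35, beside 9.64% of all genes). At this setting the share of members past the test was thus close to that of the whole transcriptome, and at other settings given below it was further above it. The median log2 fold change was −0.07 over the 35 members and 0.00 over all tested genes. In 11 of 35 members (31.4%) every CPM of 1 group lay above every CPM of the other, beside 36.3% of all tested genes. The summed CPM of all members was 2434.5, 2429 and 2269 in NS and 2321, 2321 and 2363 in shACSS2, so the shACSS2 libraries lay inside the NS range.

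**Figure D2:**
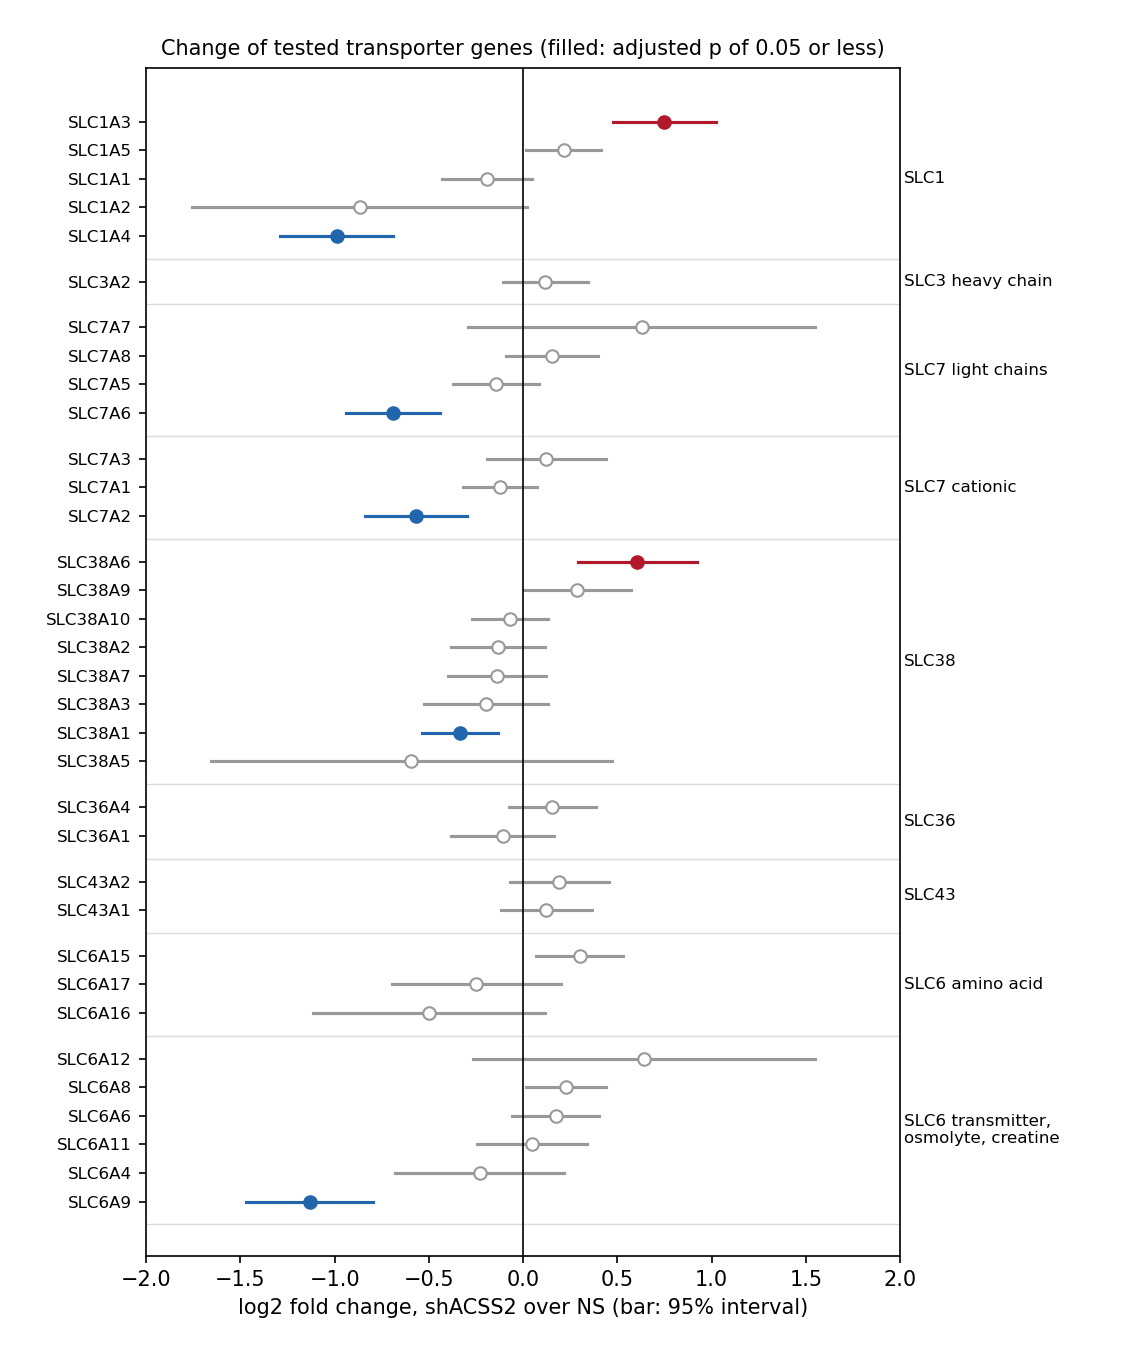
Log2 fold change of shACSS2 over NS for 34 of the 35 tested members, grouped by role, with 95% intervals as bars. Filled points passed the test (red higher, blue lower) and open points did not; each family with several tested members holds genes on both sides of 0 except SLC43, whose values are 0.19 and 0.12.

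These counts moved with the libraries, the threshold, the filter and the correction used. At an adjusted p of 0.01, 5 members passed (1 higher, 4 lower), which is 14.3% beside 6.23% of all genes. With no filter on low counts 8 of 50 passed (3 higher, 5 lower), which is 16% beside 9.81%. Without shACSS2 replicate 1, 11 members passed (5 higher, 6 lower), which is 31.4% beside 23.5% of all genes. Without NS replicate 1, 5 passed (1 higher, 4 lower), which is 14.3% beside 6.15%. With offsets corrected for GC content and gene length, an alternative added after the data were seen, 14 members passed (8 higher, 6 lower). That is 40% of tested members, beside 26.7% of all genes. The same 14 passed when the replicate number was also a block, beside 28.0%. The 7 that joined were SLC6A8, SLC6A15, SLC6A6, SLC36A4, SLC38A9 and SLC43A2, all higher, and SLC1A1, lower. Their corrected log2 fold changes ran from −0.27 (SLC1A1) to 0.37 (SLC6A15).

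In the SLC1 family, 1 of 5 tested carriers rose, 1 fell and 3 did not pass. SLC1A4 (chromosome 2, 64988477 to 65023865, plus strand, GRCh38), the ASCT1 carrier of serine, alanine, cysteine and threonine, stood at 21.9, 24.0 and 23.3 CPM in NS and at 9.34, 11.99 and 13.4 CPM in shACSS2. Every shACSS2 library lay below every NS library. It fell from 23.1 ± 1.11 to 11.6 ± 2.08 CPM (mean ± SD, 3 libraries a group; log2 fold change −0.99 with SE 0.141; edgeR's adjusted p = 0.000385). SLC1A3 (chromosome 5, 36606355 to 36688334, plus strand), the glutamate transporter EAAT1 best known from glia, stood at 27.4, 30.3 and 24.4 CPM in NS and at 54.0, 39.9 and 44.1 CPM in shACSS2. The groups did not overlap, and shACSS2 replicate 1 was the highest library. It rose from 27.4 ± 2.97 to 46.0 ± 7.28 CPM (log2 fold change 0.75 with SE 0.128; edgeR's adjusted p = 0.00138). Per length, SLC1A3 was 1.39, 1.40 and 1.16 times SLC1A4 in the NS libraries and 6.41, 3.68 and 3.63 times in the shACSS2 libraries. This ratio sets the carrier that rose over the carrier that fell, so its separation follows from those calls. The ratio was not tested.

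The most abundant member of the family did not pass. SLC1A5 had 254, 291 and 250 CPM in NS and 294, 313 and 315 CPM in shACSS2, and its groups were separated by a narrow gap. Its log2 fold change was 0.22 (SE 0.0939, 95% interval 0.02 to 0.42, edgeR adjusted p = 0.121), and without shACSS2 replicate 1 it was 0.25 and past the test (edgeR adjusted p = 0.0291). SLC1A1, the neuronal and epithelial glutamate carrier EAAT3, had 35.8, 35.8 and 40.6 CPM in NS and 36.2, 32.0 and 30.1 CPM in shACSS2, with overlap (log2 fold change −0.19 with SE 0.112; edgeR's adjusted p = 0.253). SLC1A2 was near the detection limit, at 17 to 25 reads in NS and 8 to 12 in shACSS2 (log2 fold change −0.87 with SE 0.419; edgeR's adjusted p = 0.163). The family's summed CPM was 340, 382 and 339 in NS and 394, 397 and 404 in shACSS2, without overlap. SLC1A5 makes up most of that sum.

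Among the heteromeric exchangers, 1 light chain fell and the heavy chain did not pass the test. SLC7A6 (chromosome 16, 68264516 to 68301823, plus strand), the light chain y+LAT2 that exports arginine in exchange for glutamine and sodium, stood at 31.2, 26.7 and 28.9 CPM in NS. In shACSS2 it stood at 18.4, 19.0 and 16.4 CPM, well below the NS range. It fell from 28.9 ± 2.23 to 17.9 ± 1.40 CPM (mean ± SD, 3 libraries a group; log2 fold change −0.69 with SE 0.119; edgeR's adjusted p = 0.00141). SLC7A6 is overlapped on the opposite strand by SLC7A6OS, which had 909 reads beside the 2579 of SLC7A6 and a log2 fold change of 0.09, with 0.734 as edgeR's adjusted p. AC020978.9, also on the opposite strand, had 58 reads and was past the test at −3.12 (edgeR adjusted p = 0.00301). No source used here gives the strand setting of the counting, so reads from such shared spans cannot be told apart.

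The abundant partners of the pair that carries leucine varied within the groups. SLC7A5 had 305, 319 and 259 CPM in NS and 233, 279 and 288 CPM in shACSS2, with overlap (log2 fold change −0.14 with SE 0.108 and 95% interval −0.37 to 0.09; edgeR's adjusted p = 0.384). Its pseudogene SLC7A5P1 had 253 reads in all, beside 30478 of SLC7A5. SLC3A2 had 142, 151 and 119 CPM in NS and 135, 160 and 152 CPM in shACSS2, also with overlap (log2 fold change 0.12 with SE 0.107 and 95% interval −0.11 to 0.35; edgeR's adjusted p = 0.476). The ratio of the summed light chains SLC7A5, SLC7A6, SLC7A7, SLC7A8 and SLC7A10 to SLC3A2, per length, was 2.64, 2.57 and 2.69 in NS and 2.12, 2.13 and 2.28 in shACSS2. These ratios did not overlap and were not tested. SLC7A5, which did not pass, makes up most of the summed light chains. SLC7A8, the light chain LAT2, had 20.3 to 22.6 CPM in NS and 21.8 to 24.6 CPM in shACSS2 (log2 fold change 0.15 with SE 0.115; edgeR's adjusted p = 0.379). SLC7A7, the y+LAT1 light chain of gut and kidney, had 8 to 17 reads a library.

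Of the cationic carriers, SLC7A2 fell and its more abundant relative SLC7A1 did not pass. SLC7A2 (chromosome 8, 17497088 to 17570573, plus strand), which takes up arginine and lysine, had 69.0, 69.5 and 60.1 CPM in NS and 54.7, 40.7 and 38.6 CPM in shACSS2. The groups did not overlap, with shACSS2 replicate 1 closest to NS. It fell from 66.2 ± 5.29 to 44.7 ± 8.77 CPM (mean ± SD, 3 libraries a group; log2 fold change −0.57 with SE 0.128; edgeR's adjusted p = 0.00770). SLC7A1 had 279, 260 and 254 CPM in NS and 226, 251 and 251 CPM in shACSS2. Its groups were separated only by a narrow gap (log2 fold change −0.12 with SE 0.0919 and 95% interval −0.32 to 0.07; edgeR's adjusted p = 0.381). SLC7A3, the cationic carrier of brain, had 13.6 to 15.3 CPM in NS and 13.4 to 19.0 CPM in shACSS2 (log2 fold change 0.12 with SE 0.148; edgeR's adjusted p = 0.604), and its value was −0.05 without shACSS2 replicate 3. The summed CPM of the cationic carriers was 362, 345 and 328 in NS and 294, 306 and 309 in shACSS2, without overlap. SLC7A1, which did not pass, makes up most of that sum, and the sum was not tested.

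**Figure D3:**
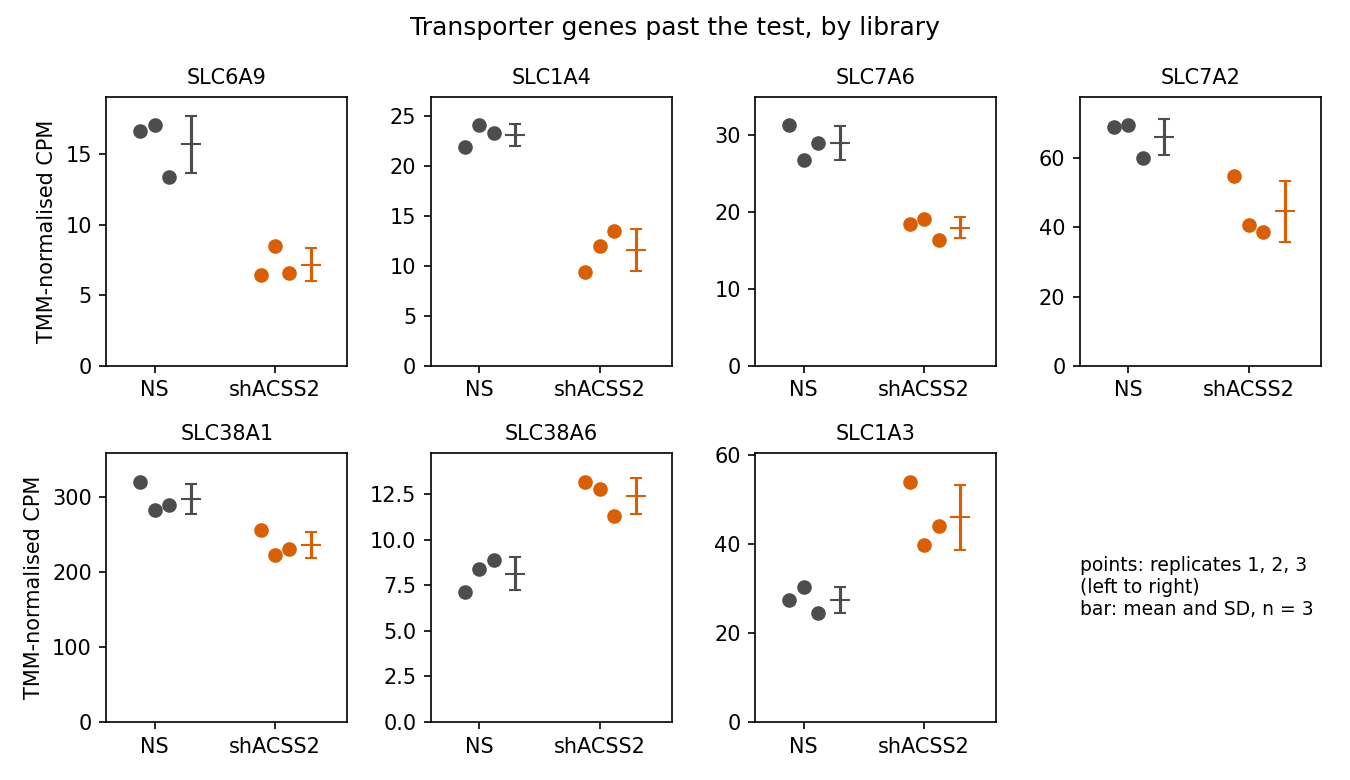
TMM-normalised CPM of the 7 members past the test in each library (points, replicates 1 to 3 from left to right) with the mean and SD of each group (n = 3), on axes that start at 0. In every panel the groups are separate; the gap relative to the level is wide for SLC6A9 and SLC1A4 and narrow for SLC7A2 and SLC38A1.

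In the SLC38 family of sodium-coupled neutral carriers, 1 of 8 tested members rose, 1 fell and 6 did not pass. SLC38A1 (chromosome 12, 46183063 to 46270017, minus strand), a glutamine carrier of the plasma membrane, had 321, 284 and 290 CPM in NS and 256, 222 and 231 CPM in shACSS2, without overlap. It fell from 298 ± 20.05 to 237 ± 17.3 CPM (mean ± SD, 3 libraries a group; log2 fold change −0.33 with SE 0.0952; edgeR's adjusted p = 0.0254). This call ended without NS replicate 1, NS replicate 3, shACSS2 replicate 2 or shACSS2 replicate 3 (edgeR adjusted p = 0.156, 0.0656, 0.107 and 0.0906), at log2 fold changes from −0.36 to −0.28. SLC38A6 (chromosome 14, 60981114 to 61083733, plus strand), a less studied relative, had 7.12, 8.40 and 8.90 CPM in NS and 13.2, 12.8 and 11.3 CPM in shACSS2, a clear separation. It rose from 8.14 ± 0.919 to 12.4 ± 0.991 CPM (log2 fold change 0.61 with SE 0.149; edgeR's adjusted p = 0.0121), and the call ended without NS replicate 1 (0.52, edgeR adjusted p = 0.0870). SLC38A6 is overlapped on the opposite strand by TRMT5, which had 5907 reads beside its 1100 and a log2 fold change of 0.06, with 0.777 as edgeR's adjusted p.

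SLC38A2, a close relative of SLC38A1 that also lies on chromosome 12 (46358189 to 46372867, minus strand), had 258, 273 and 246 CPM in NS and 285, 200 and 224 CPM in shACSS2. The shACSS2 libraries bracketed the NS range, with replicate 1 above it (log2 fold change −0.13 with SE 0.117 and 95% interval −0.38 to 0.11; edgeR's adjusted p = 0.459). Without shACSS2 replicate 1 the value was −0.29 and past the test (SE 0.0769, edgeR adjusted p = 0.0133), so that library decided the call. Of the carriers of the lysosome, SLC38A9, the arginine sensor that signals to mTORC1, had 23.3 to 26.5 CPM in NS and 25.1 to 36.1 CPM in shACSS2 (log2 fold change 0.29 with SE 0.134; edgeR's adjusted p = 0.149). SLC38A7, which releases glutamine and asparagine from lysosomes, had 20.6 to 21.8 CPM in NS and 16.9 to 21.3 CPM in shACSS2 (log2 fold change −0.14 with SE 0.122; edgeR's adjusted p = 0.459). SLC38A10 had 69.2 to 74.8 CPM in NS and 65.0 to 72.3 CPM in shACSS2 (log2 fold change −0.07 with SE 0.0954; edgeR's adjusted p = 0.665).

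The tested SLC36 and SLC43 genes did not pass. SLC36A1, a proton-coupled carrier of lysosomes and endosomes, had 19.7 to 24.7 CPM in NS and 18.7 to 22.5 CPM in shACSS2, and SLC36A4 had 35.9 to 36.7 CPM in NS and 36.7 to 45.1 CPM in shACSS2. Their log2 fold changes were −0.11 (95% interval −0.38 to 0.17) and 0.15 (95% interval −0.08 to 0.38). Of the sodium-independent leucine carriers, SLC43A1 (LAT3) had 41.7 to 44.9 CPM in NS and 40.0 to 52.0 CPM in shACSS2. SLC43A2 (LAT4) had 30.1 to 32.8 CPM in NS and 28.9 to 39.1 CPM in shACSS2 (log2 fold change 0.19 with SE 0.125; edgeR's adjusted p = 0.304), and was past the test without shACSS2 replicate 1 (0.32, edgeR adjusted p = 0.0174). In both genes shACSS2 replicate 1 lay below all NS libraries and the other shACSS2 libraries above them.

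The largest fitted change among the 35 tested members was in the SLC6 family, where 1 of 10 tested members fell and 9 did not pass. SLC6A9 (chromosome 1, 43991500 to 44031467, minus strand), the glycine transporter GlyT1, had 16.7, 17.1 and 13.4 CPM in NS and 6.41, 8.5 and 6.55 CPM in shACSS2. The highest shACSS2 library was far below the lowest NS library. It fell from 15.7 ± 2.00 to 7.16 ± 1.17 CPM (mean ± SD, 3 libraries a group; log2 fold change −1.13 with SE 0.160; edgeR's adjusted p = 0.000354), and it was the only member past a 2-fold change. CCDC24, which overlaps it on the opposite strand, had 640 reads beside its 1266 and a log2 fold change of 0.08, with 0.788 as edgeR's adjusted p.

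The abundant SLC6 genes had log2 fold changes above 0 and did not pass. SLC6A8 had 178, 165 and 180 CPM in NS and 179, 213 and 219 CPM in shACSS2 (log2 fold change 0.23 with SE 0.0995 and 95% interval 0.02 to 0.44; edgeR's adjusted p = 0.122). The overlap came from shACSS2 replicate 1, and without it the value was 0.31 and past the test (edgeR adjusted p = 0.00453). The creatine transporter pseudogene SLC6A10P had 2 reads in all. SLC6A15 had 108, 111 and 109 CPM in NS and 158, 119 and 127 CPM in shACSS2. These groups did not overlap, and the spread lay in shACSS2, where replicate 1 was the highest (log2 fold change 0.30 with SE 0.109; edgeR's adjusted p = 0.0681). It was past the test with no filter on low counts (0.30, edgeR adjusted p = 0.0495) and without shACSS2 replicate 2 (0.38, edgeR adjusted p = 0.0406). SLC6A6, the taurine transporter, had 37.4 to 45.6 CPM in NS and 42.96 to 49.2 CPM in shACSS2, with overlap (log2 fold change 0.17 with SE 0.109; edgeR's adjusted p = 0.292).

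SLC6 carriers of GABA and serotonin that are described here did not pass. SLC6A11, the GABA transporter GAT3, had 11.6 to 13.9 CPM in NS and 11.9 to 13.9 CPM in shACSS2 (log2 fold change 0.05, 95% interval −0.25 to 0.34), a sign that turned to −0.03 with library totals as the scaling. SLC6A4, the serotonin transporter, had 3.96 to 5.18 CPM in NS and 3.36 to 4.89 CPM in shACSS2 (log2 fold change −0.23 with SE 0.212; edgeR's adjusted p = 0.484). SLC6A17, a carrier of synaptic vesicles, had 4.70 to 6.73 CPM in NS and 3.67 to 5.88 CPM in shACSS2. SLC6A12, which carries betaine and GABA, had 10 to 25 reads a library.

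A sequence feature that the choice of members did not use is a short match in the annotated 3′ UTR. ATGCTCA or TGCTCAA had been picked from the fold changes of these same libraries as common among genes that fell, so what follows is a description with no test. In the longest annotated 3′ UTR of each gene (GENCODE v29, given strand only), 10 of 35 tested members (28.6%) held a match, beside 18.0% of the 13263 tested genes whose 3′ UTR spans 50 bases or more. The members' 3′ UTRs were also longer, with a median of 2276 bases beside 1393. Matches were found in 4 of the 5 members that fell (SLC1A4, SLC6A9, SLC7A6 and SLC7A2), in neither of the 2 that rose and in 6 of the 28 that did not pass. Among all tested genes these shares were 43.9%, 6.75% and 16.0%. The length of the 3′ UTR moved with the same split, with medians of 5208, 1133 and 2118 bases for members that fell, rose and did not pass, and of 2228.5, 938 and 1378 bases for all tested genes. Its part in the shares was not tested. SLC38A1, the remaining member that fell, held none in 5907 bases.

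The sites of 3 members that fell and of 2 that did not pass are shown to set matches of both kinds side by side. Each window is 30 bases of the transcript, 5′ to 3′, with the match in capitals. SLC1A4 (chr2:65021583-65021612, plus strand) and SLC6A6 (chr3:14487407-14487436, plus strand) hold the 8-base form that joins both matches, and SLC6A9 (chr1:43997374-43997403, minus strand), SLC7A6 (chr16:68298975-68299004 and chr16:68301508-68301537, plus strand) and SLC38A2 (chr12:46360023-46360052, minus strand) hold a 7-base form.
SLC1A4: taattgaaaaaATGCTCAAattcttagcca
SLC6A9: tgcagtcattcATGCTCAtgtccccagtgt
SLC7A6 site 1: ggccatatattTGCTCAAtaaagattgaag
SLC7A6 site 2: tgcaaaatcctTGCTCAAtaaataaaaaag
SLC6A6: cctgtgtaataATGCTCAAccttcatgtct
SLC38A2: actttttcaaaATGCTCAcctactggaagt
SLC1A4 and SLC6A6 share the 8-base form, and their log2 fold changes were −0.99 and 0.17. SLC6A9 and SLC38A2 share the same 7-base form at −1.13 and −0.13. The site lies 448 bases after the stop codon in SLC1A4, 153 in SLC6A9, 1070 in SLC38A2 and 2411 in SLC6A6. SLC7A2 has 4 matches in 5427 bases. SLC7A5, SLC36A1, SLC6A17 and SLC1A2 held a match and did not pass.

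**Figure D4:**
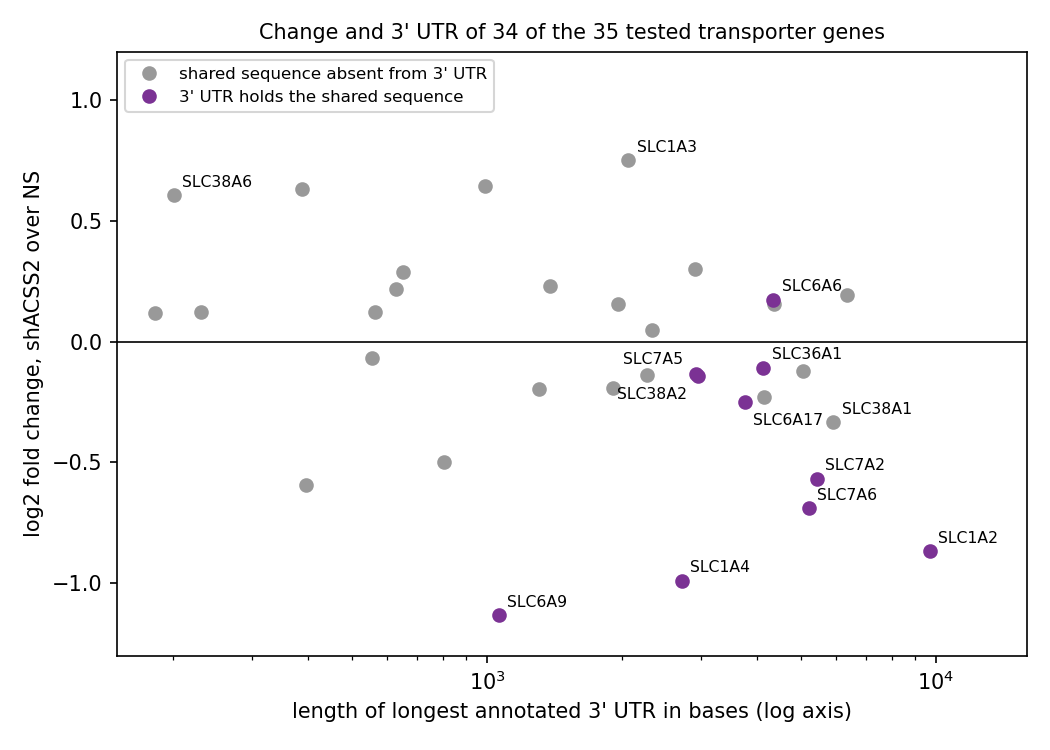
Log2 fold change of 34 of the 35 tested members against the length of the longest annotated 3′ UTR (log axis, in bases). Purple points hold the shared sequence and grey points do not; 4 of the 5 members that fell are purple, as are 6 that did not pass, and SLC6A6 is the one purple point above 0.

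Other genes that sense or use the transported amino acids were described from 4 lists, of which 20 genes in all were past the test. Of 34 tested genes of amino acid sensing upstream of mTORC1, 3 rose, 3 fell and 28 did not pass (17.6%, beside 17.1% of all genes; median log2 fold change −0.05). SESN3, a sestrin, fell from 75.0 ± 5.88 to 38.2 ± 5.15 CPM (mean ± SD, 3 libraries a group; log2 fold change −0.97 with SE 0.115; edgeR's adjusted p = 7.36e-05). Among the Rag GTPases of the lysosome, RRAGC stood at −0.82 (SE 0.165, edgeR's adjusted p = 0.00391) and RRAGD at 0.57 (SE 0.0985, edgeR's adjusted p = 0.00146). RRAGA (−0.09, edgeR's adjusted p = 0.536) and RRAGB (0.24, edgeR's adjusted p = 0.257) did not pass. Of 14 enzymes of glutamine, glutamate and asparagine, 2 rose, 1 fell and 11 did not pass, with a median of 0.10. The share past the test was 21.4%, beside 17.1% of all genes. GLUL, the glutamine synthetase, rose by 0.27 on the log2 scale (SE 0.0859, edgeR's adjusted p = 0.0419), while GPT, an alanine aminotransferase at 5.76 CPM in NS, stood at a log2 fold change of −1.19 (SE 0.223, edgeR's adjusted p = 0.00255). Of 14 tested amino acid transporters outside these families 12 did not pass and 2 rose (14.3%, beside 17.1% of all genes), with a median of 0.17. Those that rose were MFSD12, a cysteine carrier of lysosomes and melanosomes, at 0.38 (SE 0.109, edgeR's adjusted p = 0.0267) and SLC25A22, the mitochondrial glutamate carrier, at 0.41 (SE 0.116, edgeR's adjusted p = 0.0236).

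ATF4 is the transcription factor that induces many of these transporters when amino acids run short. In the list of ATF4, the kinase EIF2AK4 and genes ATF4 is known to induce, 3 of 19 rose, 6 fell and 10 did not pass (47.4%, beside 17.1% of all genes; median −0.18). DDIT4, an inhibitor of mTORC1, fell from 253 ± 15.5 to 169 ± 34.1 CPM (mean ± SD, 3 libraries a group; log2 fold change −0.59 with SE 0.126; edgeR's adjusted p = 0.00592). SHMT2, the mitochondrial serine hydroxymethyltransferase, stood at a log2 fold change of −0.38 (SE 0.0985, edgeR's adjusted p = 0.0165) and CEBPB of 0.43 (SE 0.108, edgeR's adjusted p = 0.0144). ATF4 itself did not pass, at a log2 fold change of 0.20 with 0.163 as edgeR's adjusted p. The 20 calls over the 4 lists became 7 when NS replicate 1 was left out and 6 when NS replicate 3 was, while the share of all genes past the test went from 17.1% to 6.15% and 6.98%. Leaving out shACSS2 replicate 1, 2 or 3 gave 30, 12 and 9 calls, beside 23.5%, 11.7% and 11.9% of all genes.

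**Figure D5:**
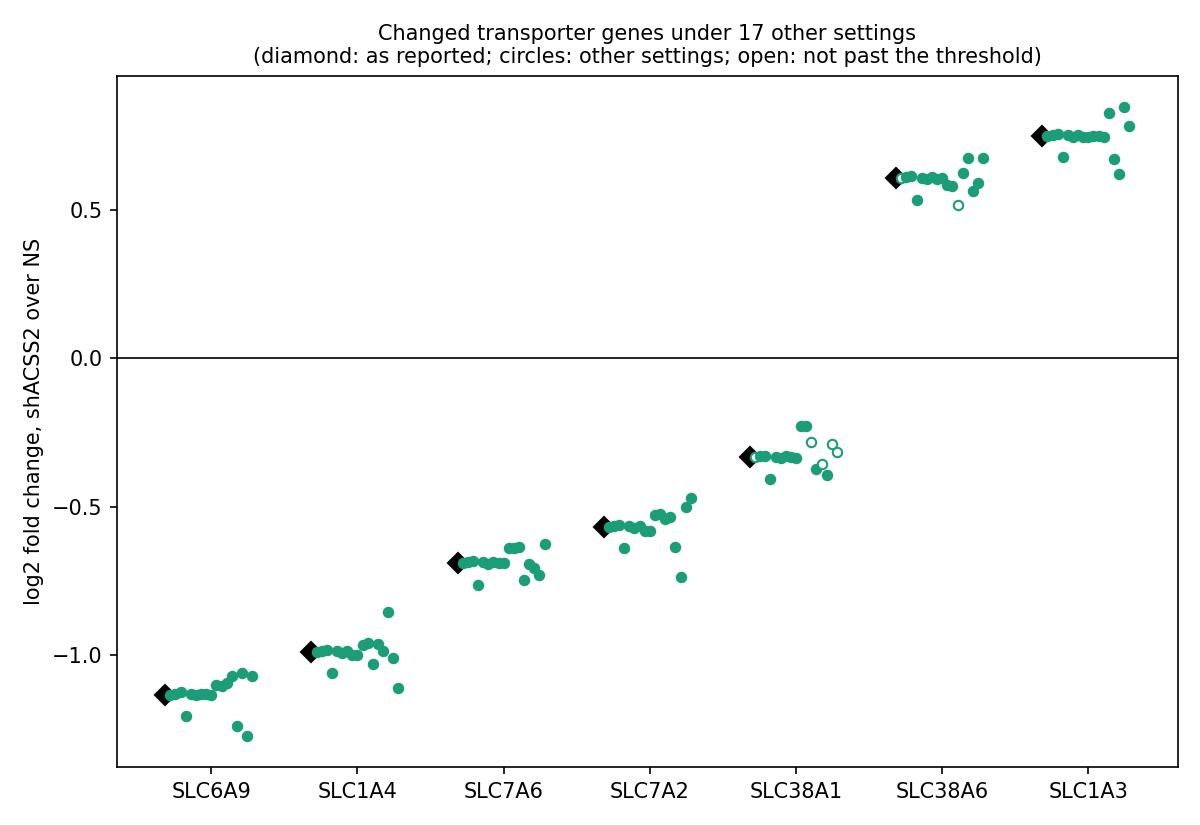
Log2 fold changes of the 7 changed members as reported (black diamond) and under 17 other settings (green circles, open where the call was lost). No value crossed 0; open circles are found for SLC38A1 and SLC38A6, and the other 5 genes passed at every setting.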

How the data were processed

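RNA sequencing libraries from 3 NS and 3 shACSS2 samples were compared. The authors deposited raw counts of reads per gene. The submitters' processing notes name fastp, DESeq2, HISAT2 2.0.5 and featureCounts 1.5.0-p3, and the build hg19. No source used here gives the strand setting or the treatment of multiply mapped reads. All 58735 identifiers matched GENCODE v29, an annotation of GRCh38 on which all printed coordinates, exon lengths and 3′ UTRs rest, so the build of the alignment is uncertain.

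Counts were tested across all genes with edgeR 4.0.16 in R 4.3.3 (TMM, default filter by group, robust quasi-likelihood F test, group as the only term, Benjamini-Hochberg adjustment at 0.05). Each SE is the absolute log2 fold change divided by √F, and 95% intervals of fold changes come from the same fit. In simulated counts for this comparison (16210 genes) 85% of 2-fold and 68% of 1.5-fold changes were recovered. Only 100 genes were changed at each fold, and 6 unchanged genes were called. The simulated libraries carried no trend with GC content, so the rates may not hold for the real libraries. Chi-square per degree of freedom between libraries of a group was 4.28 to 17.3 over genes with at least 20 summed counts. Libraries of a group thus differed by more than counting error, and this spread may be technical. Each library was treated as 1 replicate. A count of 0 in 1 library allows 0.144 to 0.181 CPM (3 counts). These floors cover counting error only, since PCR reads that carry no molecular identifier can be copies.

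Named are all members past the test, the 12 highest others per length, up to 3 genes per further list and, chosen after their values were seen, further members and ATF4; a few items, 1 tested member among them, are counted but not reported here. Members and lists were chosen with earlier results of these data known. Alternatives were other scalings, filters, DESeq2 1.42.0, voom (limma 3.58.1), an adjusted p of 0.01, omission of each library, the replicate block, and a loess correction for GC content and length.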

Additional observations from a re-analysis of the deposited data

How the results depend on the processing

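Of the 7 changed members, SLC1A3, SLC1A4, SLC6A9, SLC7A2 and SLC7A6 kept their direction and their call under all 17 alternatives, with log2 fold changes of 0.62 to 0.85, −1.11 to −0.86, −1.27 to −1.06, −0.74 to −0.47 and −0.76 to −0.62. SLC38A1 and SLC38A6 kept their direction, and both lost the call at an adjusted p of 0.01. At that threshold 1 member was higher and 6 genes of the further lists were past it (20 at 0.05). The number of members past the test was 5 to 11 when a library was left out (1 to 5 higher, 4 to 6 lower), and that of list genes 6 to 30 (the highest without shACSS2 replicate 1, the lowest without NS replicate 3). With the GC and length correction 14 members passed (8 higher) and 34 list genes, and 38 with the block added; this correction also removes any true trend with GC content or length, and the cause of the added calls was not tested. Among members that did not pass and are reported here, the sign turned for SLC38A10 under the correction (0.069, and 0.065 with the block) and for SLC7A3 without shACSS2 replicate 3 (−0.048, in a range up to 0.22 over omitted libraries). It turned for SLC6A11 with library totals (−0.026) and without NS replicate 3 or shACSS2 replicate 2 (−0.0086 and −0.011, in a range up to 0.13). Depth limits the members with few reads, such as SLC1A2 with 8 to 25 reads a library.

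The replicate block gave 7 members past the test, 2 higher and 5 lower, the same 7 genes. Same-numbered libraries deviated together weakly if at all (r = −0.04, −0.07 and 0.11 across genes for numbers 1, 2 and 3), and not every library correlated best with its own number, so the numbers were not taken to pair the libraries.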
